A study of Homo sapiens with 8 samples.

Results

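The genes described here are targets of p53, the transcription factor that is stabilised when DNA is damaged or nucleolar function fails. It binds paired half-sites in the DNA of its targets and raises their transcription, and the products hold the cell cycle, repair DNA, feed back on p53 or start apoptosis. In diploid fibroblasts the pathway is known above all for arrest and senescence. The members were the 10 genes CDKN1A, MDM2, PLK2, ZMAT3, XPC, DDB2, GADD45A, BTG2, FAS and BAX, taken as the probe sets whose annotation gives exactly 1 symbol that is in this list. Found were 9 probe sets for 9 genes among 8746 on the 12 h arrays, and 17 probe sets for the same 9 genes among 22215 on the 6 h arrays. This is 9 of 11963 genes that the arrays name by 1 symbol. No probe set carried BTG2 alone, so BTG2, an antiproliferative cofactor, was not analysed here.

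MRC5 cells, a line of human diploid lung fibroblasts, were given 10 µM 8-oxoguanine, the free oxidised form of the base guanine, or were mock treated with its solvent. The description field speaks of 8-oxoguanine exposure for the mock samples too, and the treatment label, source name and title, which call them mock or solvent, were followed. RNA was taken at 6 h from 1 treated and 1 mock sample, and at 12 h from 3 treated and 3 mock extracts, and the labels name no genetic change or further agent. The labels call the 12 h extracts technical replicates, so p-values at 12 h measure the spread between extracts, which may be technical. The treatment protocol names 6 h for every sample, whereas the time label and the description give 12 h for these 6, which was followed. Each time was compared with its own mock cells because the array types differed. The question was how the free base changes expression in these fibroblasts, here in the genes that p53 induces. Fewer cells with a transcript and less of it per cell cannot be told apart in such bulk RNA.

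Values are signals on a linear scale with a trimmed mean near 499.9 on every array, and array medians lay between 143 and 165. Of 10 listed fibroblast markers 9 were on the 12 h arrays and all 9 passed the filter on dim probe sets, with COL1A2 and VIM, a collagen chain and vimentin, averaging 21233 and 18210 in treated cells and 21235 and 18748 in mock cells. Of these 9, limma called 3, beside 13.2% of all probe sets kept. LUM, the proteoglycan lumican, and PDGFRB, a growth factor receptor, rose by 1.07 and 0.30 on the log2 scale (limma adjusted p = 0.0034 and 0.0446). S100A4, a calcium-binding protein, fell by 0.58 (limma adjusted p = 0.0030). Of the markers of other cells on the arrays, 4 of 7 epithelial, 1 of 5 endothelial, 2 of 4 blood and 2 of 4 smooth muscle genes passed. Those of epithelium were KRT8, KRT18, KRT19 and SFTPC, that of endothelium was PECAM1, and those of blood were CD3E and HBB. CNN1 and ACTA2 were those of smooth muscle. EPCAM and CDH1 of epithelium, CDH5 of endothelium, and PTPRC and CD14 of blood cells were among the markers under the filter limit, a signal of 93.9 averaged on the log2 scale. The summed signals of the epithelial, endothelial and blood markers overlapped between the groups, although KRT19, a keratin, fell by 1.27 on the log2 scale (116 ± 21.1 in treated and 277 ± 6.24 in mock cells, SD, n = 3 each, limma adjusted p = 0.00145). KRT18, another keratin, made up most of the epithelial sum, with means of 3943 in treated and 3639 in mock cells. The sum of the smooth muscle markers ranged over 4538 to 4803 in treated and 4295 to 4468 in mock cells. The ratio of actin control signals from the 3 prime and 5 prime ends was 0.999 to 1.07 on the treated arrays and 0.889 to 0.995 on the mock arrays. The part of these differences in the results below was not tested. Treated replicate 3 and mock replicate 2 stood apart in their brightest signals, 24396 and 25096, against 19328 to 20775 on the other 4 arrays, and values without each are given where they change a result.

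At 12 h the members called went in both directions. PLK2, ZMAT3 and XPC rose, DDB2 fell, and CDKN1A, GADD45A, FAS and BAX did not pass the test, among 8 members that passed the filter. MDM2, the ninth, was too dim to be kept. Over all 5248 probe sets kept, limma called 13.2% at an adjusted p under 0.05, 6.59% higher and 6.65% lower in treated cells, and of the 8 members kept it called 4. The median log2 fold change of the 8 members kept was 0.051, beside 0.0072 over all probe sets kept. With MDM2 included the median of the 9 was -0.026, beside 0.013 over all 8746 probe sets, and 4 of the 9 lay above 0.

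**Figure D1:**
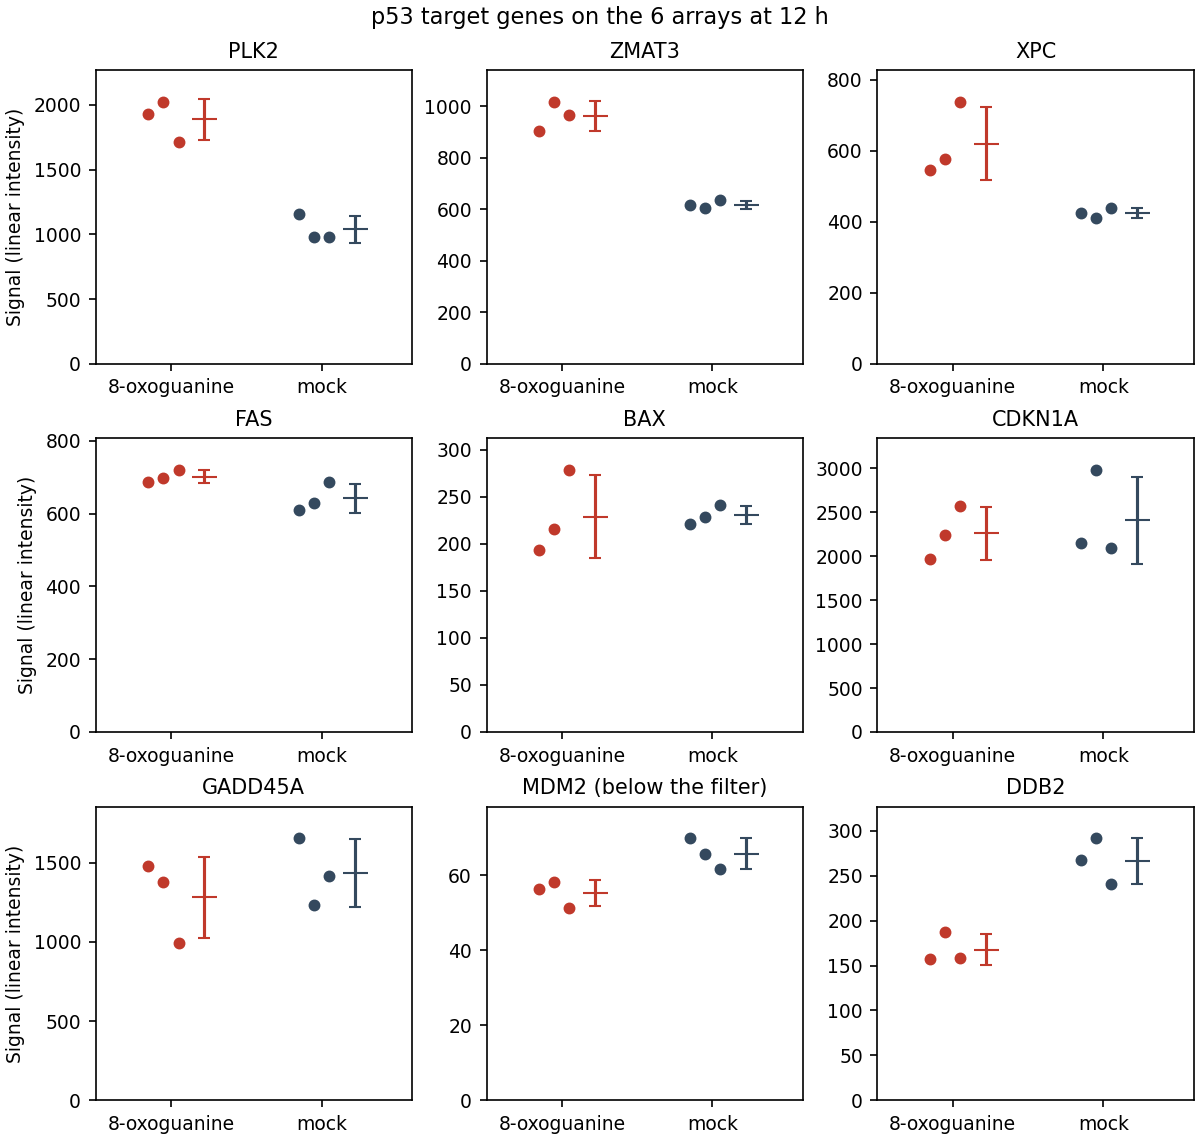
Signal of each member (linear intensity, y axis from 0) on the 3 arrays of 8-oxoguanine treated cells and the 3 arrays of mock cells at 12 h, with the mean and SD of each group beside the points. The groups are separate for PLK2, ZMAT3 and XPC (treated higher) and for MDM2 and DDB2 (treated lower), and overlap for the other 4.

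Among the members that act on the cell cycle, PLK2, a polo-like kinase of centriole duplication and stress responses, rose most. Its signal was 1927, 2025 and 1717 on the treated arrays, against 1160.1, 977 and 978 on the mock arrays. Every treated array was thus above every mock array, and the lowest and highest of the 9 log2 ratios between a treated and a mock array were 0.57 and 1.05. The mean was 1889.8 ± 157 in treated cells and 1038 ± 105 in mock cells (SD, n = 3 each), 1.82-fold or 0.87 on the log2 scale (SE 0.095, limma adjusted p = 0.000565). Of the probe sets kept, 1.96% had a larger absolute change.

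CDKN1A encodes p21, the inhibitor of cyclin-dependent kinases through which p53 arrests cells in G1. It read 1969, 2239 and 2566.5 in treated cells, against 2148, 2979 and 2089 in mock cells, and the groups overlapped. The log2 fold change was -0.080 (95% interval -0.40 to 0.24, limma adjusted p = 0.774). A rise of more than 1.18-fold lay outside this interval, which measures only the spread between extracts. The sign of the change turned without mock replicate 2, the brightest of the mock arrays for this gene (0.08), and without treated replicate 1 (0.014). GADD45A, a small growth arrest protein that binds PCNA and p21, read 1478, 1379 and 994 in treated cells, against 1657, 1234 and 1418 in mock cells. The groups overlapped here as well, the log2 fold change was -0.17 (95% interval -0.52 to 0.17, limma adjusted p = 0.511), and without treated replicate 3 it was 0.0014.

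ZMAT3, an RNA-binding zinc finger protein that p53 induces and that acts on splicing and message stability, rose as well. It read 904, 1018 and 967 on the treated arrays, against 618, 603 and 634 on the mock arrays, and the lowest treated value was well above the highest mock value. The means were 963 ± 57.1 in treated and 618 ± 15.6 in mock cells (SD, n = 3 each), 1.56-fold or 0.64 on the log2 scale (SE 0.081, limma adjusted p = 0.00125). MDM2, the ubiquitin ligase that p53 induces and that in turn degrades p53, had 56.3, 58.1 and 51.2 in treated cells, against 69.9, 65.6 and 61.5 in mock cells. All 6 values lay below the limit of 93.9, and the treated arrays lay below the mock arrays by a narrow margin. The log2 difference was -0.25, and in the fit with no filter its 95% interval was -0.88 to 0.38 (limma adjusted p = 0.712), where 6.35% of 8746 probe sets were called.

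The members that recognise damage in nucleotide excision repair moved in opposite directions. XPC, the sensor of distorted DNA in the global branch of this pathway, read 546, 577 and 738 in treated cells, against 425, 411 and 439.95 in mock cells. Its mock arrays were closely spaced and treated replicate 3 stood above the other 2. The means were 621 ± 103 in treated and 426 ± 14.3 in mock cells (SD, n = 3 each), 1.45-fold or 0.53 on the log2 scale (SE 0.12, limma adjusted p = 0.0189), and it was 0.40 (limma adjusted p = 0.0375) without treated replicate 3. DDB2, which binds ultraviolet photoproducts and hands them to XPC, read 157, 187 and 159 in treated cells, against 267, 292 and 240.3 in mock cells. All treated values were below all mock values, with means of 167 ± 17.1 in treated and 267 ± 25.8 in mock cells (SD, n = 3 each). The log2 fold change was -0.67 (SE 0.15, limma adjusted p = 0.0157), or 62.8% of the mock level, and without treated replicate 1 the adjusted p was 0.0654 at a change of -0.63.

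The apoptosis members did not pass. FAS, the death receptor of the cell surface, read 685.8, 697 and 719.9 in treated cells, against 609, 630.3 and 686.1 in mock cells. The groups met only at the lowest treated and the highest mock array, and the log2 fold change was 0.13 (95% interval -0.06 to 0.32, limma adjusted p = 0.360). BAX, which opens the outer mitochondrial membrane, read 193, 215 and 279 in treated cells, against 222, 229 and 241 in mock cells. Its treated arrays spanned the mock arrays on both sides, and the log2 fold change was -0.026 (95% interval -0.38 to 0.33, limma adjusted p = 0.938). Treated replicate 3 had the highest XPC, FAS, BAX and CDKN1A and the lowest PLK2, GADD45A and MDM2 signals of the treated group.

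**Figure D2:**
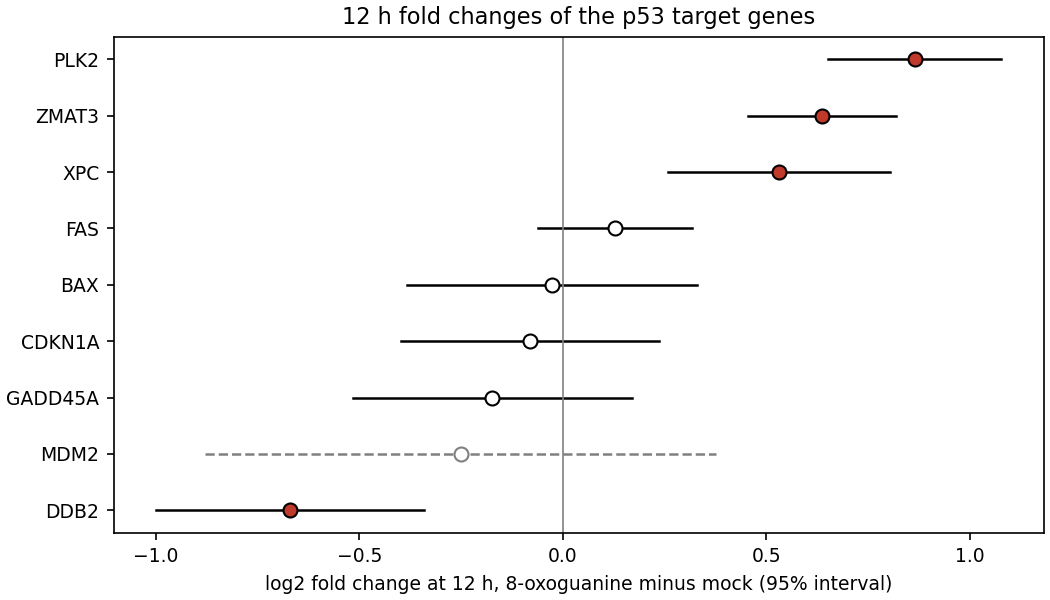
Log2 fold change at 12 h (x axis, 8-oxoguanine minus mock) of each member, with its 95% interval from limma. Filled points passed at an adjusted p under 0.05, and the dashed grey line is MDM2 in the fit with no filter. PLK2 (0.87), ZMAT3 (0.64) and XPC (0.53) lie right of 0, DDB2 (-0.67) left of it, and the intervals of the other 5 cross 0.

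Counting separation of the groups in place of the test, 3 of the 8 members kept were higher and 1, DDB2, lower on every treated array, where 17.4% and 16.5% of all probe sets kept did so, 33.9% in all. MDM2, below the filter, was lower on every treated array too. The 9 log2 ratios between a treated and a mock array ran over -0.60 to 0.30 for CDKN1A, of which 4 were above 0, and over -0.74 to 0.26 for GADD45A, of which 3 were above 0. For BAX 3 of 9 and for FAS 8 of 9 were above 0. CDKN1A and GADD45A thus varied more within each treatment than PLK2 and ZMAT3 did, with SDs on the log2 scale of 0.19 and 0.31 in treated and 0.28 and 0.21 in mock cells. The SDs of PLK2 and ZMAT3 were 0.12 and 0.09 in treated and 0.14 and 0.036 in mock cells.

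The promoters of the genes that rose are shown because the members were chosen as targets of a factor that binds DNA. RefSeq windows of 300 bases, 250 before a listed start and 50 from it on (GRCh38.p14), were found for 9 of 10 members, all but GADD45A, 16 windows in all, some of which overlap. They were searched for the p53 half-site consensus of 10 bases, which reads the same on both strands, and for pairs of half-sites with 0 to 13 bases between them. For PLK2 (chr5:58460087-58460336, minus strand), ZMAT3 (chr3:179071810-179072059, minus strand) and XPC (chr3:14178602-14178851, minus strand) the 250 bases before the start follow. Capitals mark an exact half-site in PLK2 and, in ZMAT3 and XPC, the closest pair of half-sites within the stretch shown, each pair with 3 mismatches.
PLK2: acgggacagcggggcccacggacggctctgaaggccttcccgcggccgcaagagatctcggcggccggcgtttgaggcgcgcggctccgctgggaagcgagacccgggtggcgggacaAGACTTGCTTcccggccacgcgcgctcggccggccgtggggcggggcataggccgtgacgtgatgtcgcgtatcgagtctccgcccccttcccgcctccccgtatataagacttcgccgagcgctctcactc
ZMAT3: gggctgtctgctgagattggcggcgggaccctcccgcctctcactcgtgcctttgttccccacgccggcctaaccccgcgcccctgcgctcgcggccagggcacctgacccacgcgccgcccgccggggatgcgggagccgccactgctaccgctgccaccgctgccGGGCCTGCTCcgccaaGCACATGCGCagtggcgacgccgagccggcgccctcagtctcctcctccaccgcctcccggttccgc
XPC: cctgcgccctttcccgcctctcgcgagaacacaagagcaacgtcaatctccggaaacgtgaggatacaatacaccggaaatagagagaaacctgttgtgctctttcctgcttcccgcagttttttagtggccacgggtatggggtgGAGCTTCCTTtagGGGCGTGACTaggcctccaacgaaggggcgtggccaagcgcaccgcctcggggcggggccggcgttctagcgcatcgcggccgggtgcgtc

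An exact half-site stood in 1 window each of PLK2, DDB2 and FAS, 3 of the 16 windows, and in 6.63% of all 35116 windows. A pair with at most 3 mismatches stood in 39.1% of all windows, so the marked pairs of ZMAT3 and XPC are of a common kind. The closest pair of PLK2, which is not marked as a pair, also had 3 mismatches and is of the same kind. DDB2, the member that fell, held a pair with no mismatch, which 0.0285% of all windows, 10 in number, did. MDM2 and FAS held pairs with 2 mismatches, as 7.82% of windows with at most that many did. A pair of each of these 3 genes is shown in capitals with their flanks, DDB2 at chr11:47214975-47215003, MDM2 at chr12:68808918-68808947 and FAS at chr10:88991304-88991333, all on the plus strand.
DDB2: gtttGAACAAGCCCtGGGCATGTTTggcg
MDM2: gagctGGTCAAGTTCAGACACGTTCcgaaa
FAS: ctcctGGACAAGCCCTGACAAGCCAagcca

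These matches are letters in a window and say nothing of binding in these cells. The windows of CDKN1A, BAX and BTG2 held no exact half-site, and their closest pairs had 4 mismatches, as 84.2% of windows with at most that many did. Across the 16 windows the share of G and C was 37.7% to 74.7%, beside a median of 58.7% over all windows.

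At 6 h there was 1 array per treatment, so the values have no replicate check and no test. The arrays differed among bright probe sets, with a highest signal of 22762 on the treated and 10699 on the mock array. Of 10 fibroblast markers 5 were 1.5-fold or more higher in treated cells as deposited, among them VIM and COL1A2 with log2 ratios of 1.31 and 1.04, which were 0.48 and 0.09 after quantile normalization. The part of this difference in the members' ratios was not tested beyond the normalized values given below. Of the 17 member probe sets 12 passed the filter, a signal of 148 averaged on the log2 scale, and 1 of these 12 differed by 1.5-fold or more, beside 8.76% of all 11108 probe sets kept, 3.32% higher and 5.44% lower on the treated array. With medians set equal, every log2 ratio would be higher by 0.12, and the values below are as deposited unless said otherwise. The brightest probe set of each gene gave a median log2 ratio of -0.12 over the 8 members kept, beside -0.032 over all probe sets kept. With MDM2, below the filter, the median of the 9 genes was -0.20.

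The genes that rose at 12 h were not alike at 6 h. PLK2 had a signal of 1319 in treated and 1684 in mock cells (log2 ratio -0.35), and ZMAT3 had 733 in treated and 936 in mock cells (log2 ratio -0.35). Both stayed below 0 after median centring (-0.24 each) and quantile normalization (-0.30 and -0.27). XPC had 694 in treated and 581 in mock cells (log2 ratio 0.26, and 0.35 after quantile normalization), on the same side of 0 as at 12 h. Of the probe sets kept, 25.8% had a larger absolute ratio than PLK2 and 39.9% a larger one than XPC.

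The other single probe sets lay closer to 0. CDKN1A read 2368 in treated and 2164 in mock cells (log2 ratio 0.13), and GADD45A read 1430.2 in treated and 1654.5 in mock cells (log2 ratio -0.21). DDB2, which fell at 12 h, read 201 in treated and 206 in mock cells. Its log2 ratio was -0.036, and 0.08 under either median centring or quantile normalization. No member with 1 probe set at 6 h came near the 1.5-fold limit, which is 0.58 on the log2 scale.

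FAS and BAX were read by more than 1 probe set at 6 h, and these disagreed. For FAS the log2 ratios were -0.20, -0.46, -0.25 and 0.62, the last from 204781_s_at, with 336 in treated and 219 in mock cells. Of the member probe sets kept, that one alone passed the 1.5-fold limit, and it was not on the 12 h array, where 204780_s_at (-0.20 at 6 h) read FAS. For BAX 211833_s_at gave 0.41 and 208478_s_at, the one also on the 12 h array, gave -0.06, or 0.05 once the arrays were median centred. The 5 probe sets of MDM2 all lay below the filter limit, with signals from 5.30 to 87.6 in treated and from 30.5 to 104 in mock cells. Their log2 ratios ran from -3.08 to 0.01, and 205386_s_at, the one on both array types, had -0.44.

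**Figure D3:**
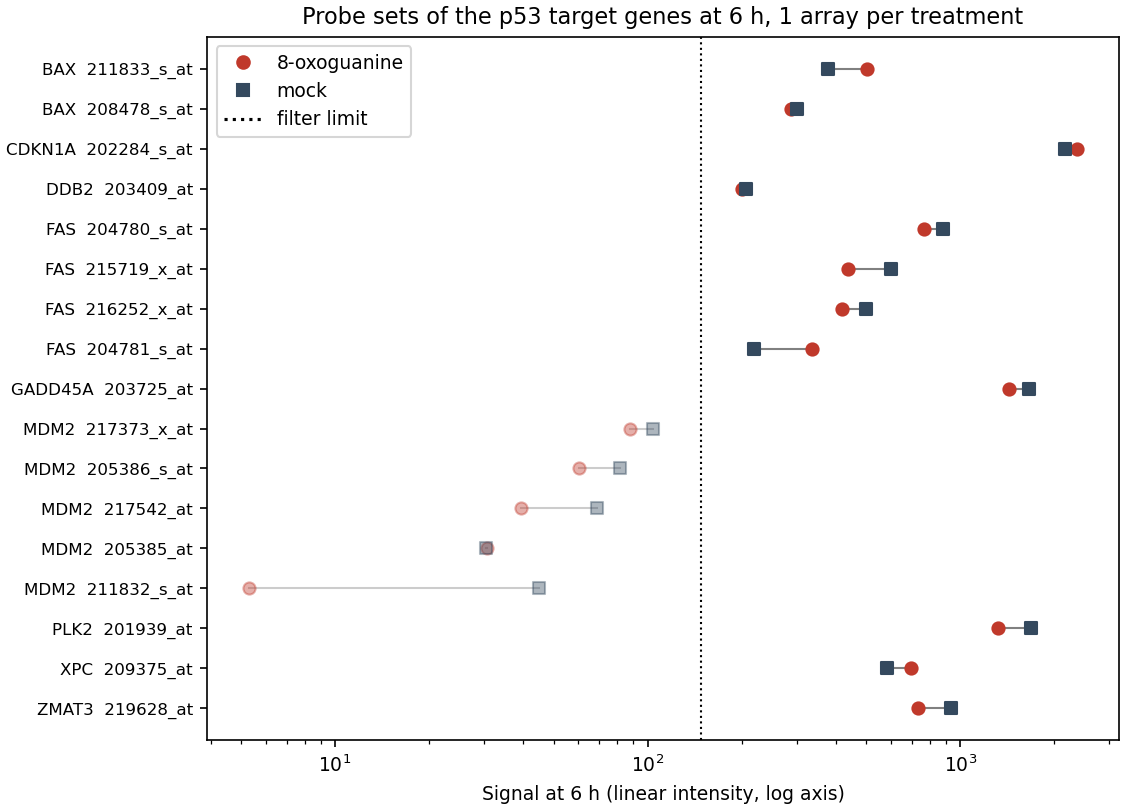
Signal at 6 h (x axis, linear intensity on a log axis) of all 17 member probe sets, on the 1 treated array (circles) and the 1 mock array (squares), with the filter limit of 148 dotted and probe sets below it faint. The FAS probe sets point in both directions, and the 5 MDM2 probe sets all lie left of the limit.

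Set side by side on the same probe sets, PLK2 had -0.35 at 6 h and 0.87 at 12 h, ZMAT3 -0.35 and 0.64, XPC 0.26 and 0.53, and DDB2 -0.036 and -0.67. FAS had -0.20 and 0.13, CDKN1A 0.13 and -0.080, GADD45A -0.21 and -0.17, BAX -0.06 and -0.026, and MDM2 -0.44 and -0.25. Time, array type and number of arrays differed together and cannot be told apart, so no difference between the times was tested.

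**Figure D4:**
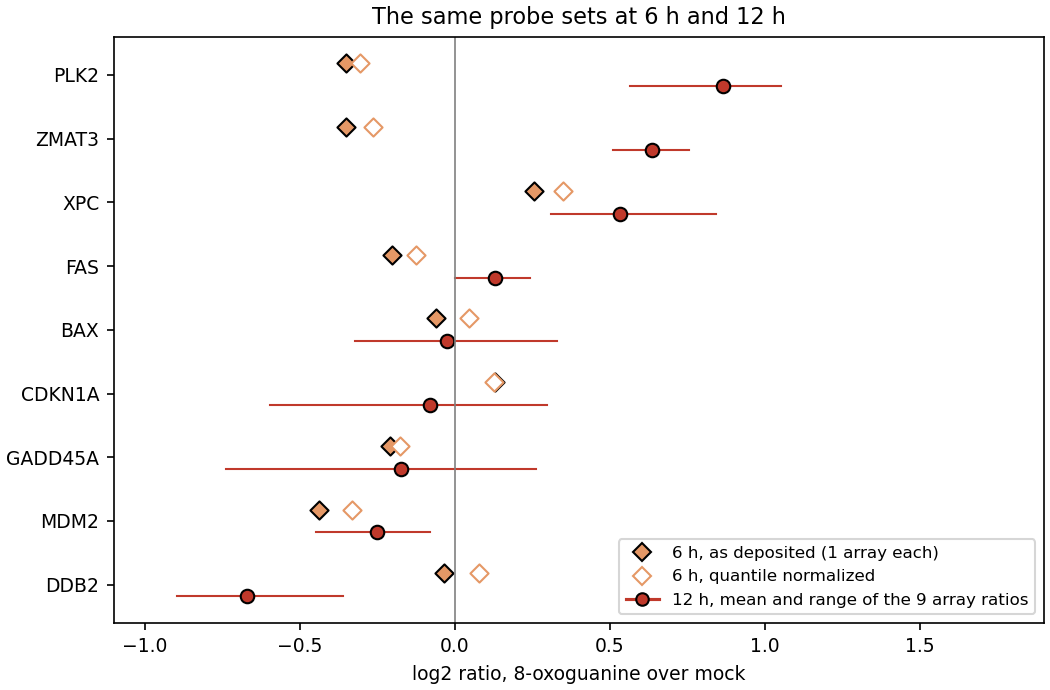
Log2 ratio of 8-oxoguanine over mock (x axis) on the same probe set at 6 h (diamonds, filled as deposited and open after quantile normalization, 1 array each) and at 12 h (circles, with a line over the 9 ratios between a treated and a mock array). PLK2 and ZMAT3 lie left of 0 at 6 h and right of it at 12 h, and XPC lies right of 0 at both.

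Other genes of the p53 network were counted at 12 h from lists, with the brightest probe set of each gene and all changes on the log2 scale. The genes called in these lists had limma adjusted p between 0.00137 and 0.0467. Of 22 listed regulators of p53, 16 were on the array and 13 passed the filter. None was called by limma, which called 13.2% of all probe sets kept. At an unadjusted limma p under 0.05, for which the share of all probe sets was not counted, 1 regulator passed. That 1 was EP300, an acetyltransferase and coactivator of p53, at 0.54 (SE 0.23, limma adjusted p = 0.156), with 138 ± 7.94 in treated and 96.9 ± 26.2 in mock cells (SD, n = 3 each). CDKN2A, whose alternative product ARF restrains MDM2, had 0.04 (SE 0.12), and ATR, the kinase of stalled replication, had -0.29 (SE 0.19).

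Of 64 further p53 targets, 45 were on the 12 h array and 35 passed the filter, of which 3 rose, 4 fell and 28 did not pass. Of all probe sets kept 13.2% were called. The median log2 fold change of these targets was 0.14 over the 35 kept, beside 0.0072 over all probe sets kept. Over the 45 it was 0.08, beside 0.013 over all probe sets. CCNG1, or cyclin G1, which directs a phosphatase to MDM2, rose by 0.34 (SE 0.08), with 3436, 3449 and 2957 in treated cells, against 2624, 2534 and 2584.5 in mock cells. It was the called member of the cell cycle and feedback list, where 5 others of 6 did not pass, among them PPM1D, the phosphatase that switches p53 signalling off, at 0.35 (SE 0.16, limma adjusted p = 0.185).

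Among 10 apoptosis targets that passed the filter, 1 rose, 2 fell and 7 did not pass. TNFRSF10B, the TRAIL death receptor DR5, rose by 0.47 (SE 0.11), with 1594, 1581 and 1339 in treated cells, against 1225, 940 and 1108 in mock cells. TNFRSF10D, a decoy receptor for the same ligand, fell by 0.49 (SE 0.11), with 377 ± 36.2 in treated and 528 ± 49.9 in mock cells (SD, n = 3 each). BID, which carries death receptor signals to mitochondria, fell by 0.35 (SE 0.10, limma adjusted p = 0.0467). PMAIP1, the BH3-only protein NOXA, had 0.04 (SE 0.16) and did not pass.

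In the remaining target lists 1 gene was called in each. PCNA, the replication clamp, fell by 0.91 (SE 0.14) among 5 repair and nucleotide genes kept, and the other 4 had log2 fold changes of 0.21 to 0.28 without passing. RPS27L, a ribosomal protein paralogue, had 0.21 (SE 0.06, limma adjusted p = 0.0563), with no overlap between the groups. PRKAB1, a subunit of the AMP-activated kinase, rose by 0.50 (SE 0.11) among 9 genes of metabolism, redox and autophagy, where SESN1, or sestrin, had -0.02 (SE 0.11). EPHA2, an ephrin receptor, fell by 0.54 (SE 0.10) among 5 secreted and surface genes. CCNG1, TNFRSF10B, TNFRSF10D, PRKAB1 and BID each lost the call without treated replicate 1, with adjusted p between 0.0587 and 0.151, and likewise without treated replicate 2, with adjusted p between 0.0670 and 0.0905. All of them but PRKAB1 also lost it without mock replicate 3, with adjusted p between 0.0518 and 0.0792, and BID without any 1 of the 6 arrays.

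The partners of XPC and DDB2 in nucleotide excision repair were also read. Of 23 listed, 20 were on the array and 19 passed the filter. At an unadjusted limma p under 0.05, for which the share of all probe sets was not counted, none rose and 2 fell. By adjusted p none rose, 1 fell and 18 did not pass, 5.26% called beside 13.2% of all probe sets kept. The 1 was LIG1, a DNA ligase that also seals replication intermediates, at -0.94 (SE 0.18), with 92.6 ± 5.23 in treated and 178 ± 18.6 in mock cells (SD, n = 3 each). Its treated mean lay below the filter limit of 93.9, so it passed the filter through the mock arrays, as did GADD45B. RAD23B and CETN2, which bind XPC, had -0.02 and 0.02 (SE 0.11 each), and DDB1, the subunit that holds DDB2 in its ubiquitin ligase, had -0.07 (SE 0.08). The median over the 20 was -0.12.

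Relatives of the members in the same protein families, listed together with the FAS partners FASLG and FADD, were not called alike. Of 12 that passed the filter, FADD among them, 1 rose, 2 fell and 9 did not pass, 25% called beside 13.2% of all probe sets kept. BTG1, of the antiproliferative BTG family, rose by 0.59 (SE 0.08), with 1589, 1617 and 1488 in treated cells, against 1066, 1083 and 969 in mock cells. GADD45B fell by 1.06 (SE 0.19) to 92.5 ± 11.5 in treated cells, against 193 ± 22.7 in mock cells (SD, n = 3 each), where GADD45A did not pass. PLK1, the mitotic kinase of the PLK2 family, fell by 0.81 (SE 0.14), with 197 ± 26.7 in treated and 343 ± 32.9 in mock cells (SD, n = 3 each). CDKN1B and CDKN1C, the inhibitors p27 and p57, had 0.25 (SE 0.21) and 0.16 (SE 0.19), and neither passed, as CDKN1A did not.

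**Figure D5:**
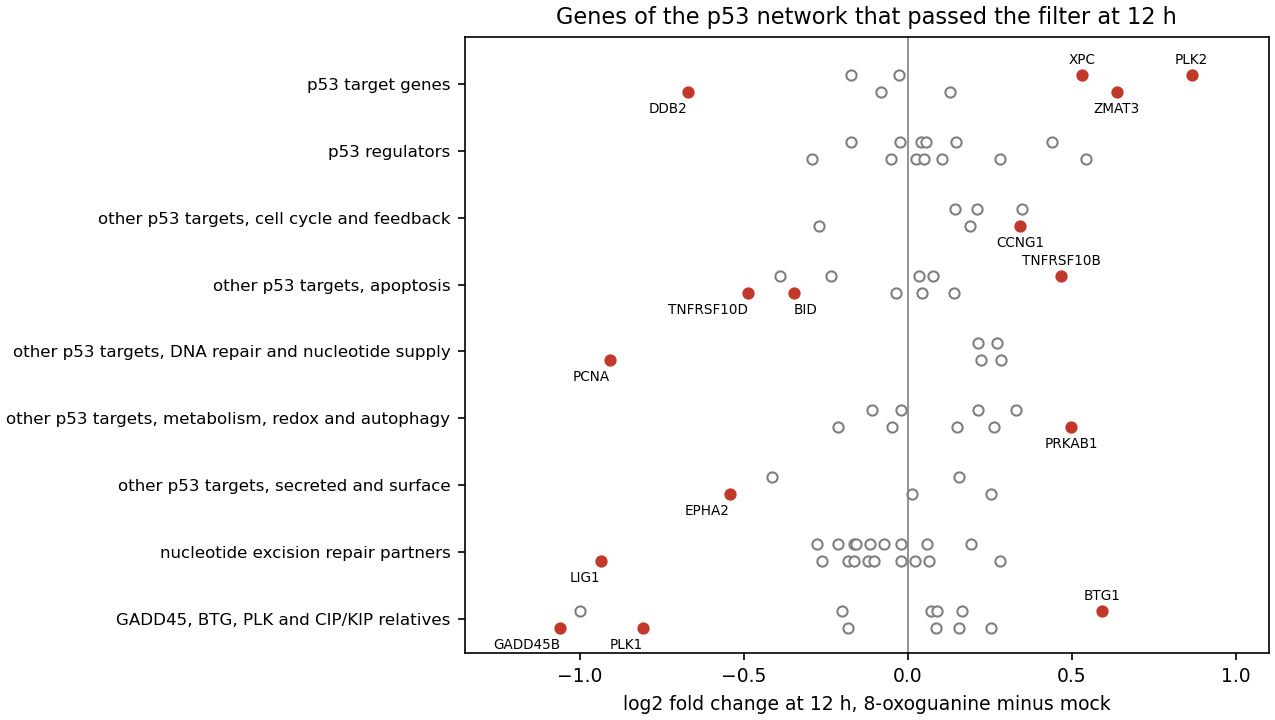
Log2 fold change at 12 h (x axis, 8-oxoguanine minus mock) of the members and of each list's genes that passed the filter, 1 point per gene. Filled, named points passed in limma at an adjusted p under 0.05, and open points did not. No regulator of p53 is filled, where 13.2% of all probe sets kept were called, and the filled target genes lie on both sides of 0.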

How the data were processed

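RNA of 8 samples was read on single-colour arrays of 2 types. Each deposited value is 1 intensity per probe set, linear in scale and produced by MAS5 according to the submitters' processing notes (version and settings: not given in the sources used here). Log2 of the deposited intensity was taken as it stood. Left out were control probe sets and those under the 40th (12 h) or 50th (6 h) percentile of mean log2. Symbols came from the platform annotation (7840 of 8746 probe sets at 12 h and 19064 of 22215 at 6 h had 1 symbol). At 12 h limma 3.58.1 (R 4.3.3, eBayes with trend) gave two-sided p-values, Benjamini-Hochberg adjusted over 5248 probe sets with a threshold of 0.05, a fit tested on simulated data. At 6 h ratios alone are given. The brightest probe set stood for a gene of a list. Named are all members and, from each list, up to 4 called genes with the largest changes; list genes named without a call, and those at 6 h, were added after their values were seen. Members and lists were chosen with earlier results of these data known. Other normalizations, filters, a constant before log2, no trend, a replicate block, all probe sets of a gene, and leaving out each 12 h array were tried as alternatives.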

Additional observations from a re-analysis of the deposited data

Results flagged for a closer look

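PLK2 and ZMAT3 had ratios of opposite sign at the 2 times. For PLK2 every treated array was above every mock array at 12 h (log2 fold change 0.87), while the 1 treated array was below the 1 mock array at 6 h (log2 ratio -0.35). For ZMAT3 the values were 0.64 at 12 h and -0.35 at 6 h. This difference between the times was not tested, since the array types differ and 6 h has 1 array per treatment.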

How the results depend on the processing

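PLK2, ZMAT3 and XPC kept their rise and their call under all 14 alternatives, leaving out each array included, with limma adjusted p up to 0.0081, 0.0096 and 0.0497. Of these alternatives, using all probe sets of a gene could not change a member, since each had 1 probe set at 12 h. The count of members that rose was 3 throughout, and the count that fell was 0 to 1 when 1 array was left out and 0 with the stricter filter, which does not test DDB2. DDB2 lost its call without treated replicate 1 (limma adjusted p = 0.0654) and kept it under the other alternatives that tested it, with log2 fold changes of -0.75 to -0.59. Same-numbered arrays deviated from their group means with correlations of 0.076, -0.15 and -0.050, so the numbers do not pair them. The called markers LUM, PDGFRB, S100A4 and KRT19 were not followed under the alternatives. With the replicate number as a block the counts of members were 3 and 1, and 513 probe sets were called against 695. Of the called members and the called genes of the other lists only BID then lost its call (limma adjusted p = 0.0711). Without the intensity trend CCNG1, TNFRSF10B and BID lost theirs (adjusted p of 0.0681 to 0.0725), BID did so with no filter (0.0730), and the stricter filter does not test GADD45B, LIG1 and PLK1. Leaving out 1 array gave 371 to 649 called probe sets (371 without treated replicate 1, 386 without treated replicate 2, 451 without mock replicate 3), 6 to 11 called genes in the other lists against 11 with all arrays (6 without treated replicate 2, 7 without treated replicate 1 or mock replicate 3), and a median of the members between -0.054 and 0.088 (the highest without treated replicate 1). Of the members that did not pass, all but FAS and MDM2 changed sign when 1 array was left out: CDKN1A (-0.18 to 0.084, the highest without mock replicate 2, above 0 also without treated replicate 1 at 0.014), GADD45A (-0.28 to 0.0014) and BAX (-0.18 to 0.088, the highest without treated replicate 1, at 0.010 without treated replicate 2 and 0.0072 without mock replicate 3). The cause was not tested. At 6 h the median over the 8 members kept was -0.12, and -0.21 to -0.0041 under the alternatives. MDM2 was limited by its low signal at both times, and the number of arrays limits every value.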

Other observations

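At 6 h, 90 genes of the other lists passed the filter, of which 2 were higher and 3 lower on the treated array by 1.5-fold or more, beside 8.76% of all probe sets kept. Lower were EP300 (log2 ratio -0.88) and ATM, the kinase that activates p53 after double-strand breaks (-0.80), among 16 regulators kept, and TOB2, an antiproliferative relative of the BTG proteins (-0.80). Higher were ALDH4A1, a mitochondrial enzyme of proline breakdown (0.76), and IGFBP3, a secreted binding protein of insulin-like growth factors (0.90, but 0.07 after quantile normalization). ALDH4A1 read 220 in treated and 129 in mock cells, so it passed the limit of 148 through the treated array. At 12 h it lay below the filter. EP300 and ATM had log2 fold changes of 0.54 and 0.44 at 12 h, neither called, and IGFBP3 had 0.01. For these list genes the brightest probe set was picked on each array type apart. The 6 h and 12 h values, those of ALDH4A1 included, may thus come from different probe sets. With 1 array per treatment at 6 h these ratios have no replicate check.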
